A study of Mus musculus with 3 samples.

Results

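The cells described here are the ureteric bud tip cells of the wild-type mouse kidney at E14.5 of gestation, chosen by their own transcripts. A tip cell had at least 500 detected genes, at least 3 of the 6 epithelial genes Calb1, Gata3, Epcam, Ehf, Cldn3 and Krt23, and Ret or Wnt11. A gene counted as detected at 1 or more UMIs (unique molecular identifiers, which count molecules) or, in the library of read counts, at 20 or more reads. The rule found 232 tip cells among 5110 cells with 500 or more genes: 107 of 1964 Drop-seq cells, 91 of 2252 10x Chromium cells and 34 of 894 Fluidigm C1 cells. They were compared with the cells that passed the same 6-gene gate but had neither Ret nor Wnt11, called other gate cells (104 Drop-seq, 103 10x and 21 C1 cells). All cells came from wild-type kidneys of 1 age and of a mixed strain that was mostly CD-1 and 129, and the 3 platforms gave 1 library each.

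The ureteric bud is the epithelial tube that branches into the collecting ducts of the kidney. Its tips carry the receptor tyrosine kinase RET and the co-receptor GFRA1, which bind GDNF from the surrounding mesenchyme. Signalling through RET and ERK keeps on the ETS factors Etv4 and Etv5 and drives branching, while the SPRY proteins damp the signal. Wnt11, a ligand made at the tip, belongs to the same circuit, since it acts back on Gdnf in the mesenchyme. Cells that leave the tip form the trunk, where Wnt9b and Wnt7b act on the mesenchyme and stroma, and later take on collecting duct or, further down the tract, urothelial features.

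Tip cells made up 50.7% of Drop-seq gate cells (exact Clopper-Pearson 95% interval 43.8 to 57.6%). Their share was 46.9% among 10x gate cells (39.7 to 54.2%) and 61.8% among those of C1 (47.7 to 74.6%). The intervals of shares and levels cover counting error only. Tip cells were also the deeper cells, with a median of 9673 Drop-seq UMIs, 10077 10x UMIs and 213209 C1 reads, against 6423 UMIs, 6508 UMIs and 171195 reads in other gate cells. When every cell was thinned to 4000 UMIs (50000 reads in C1) before the rule was applied, the shares were 37.2%, 38.6% and 21.4%, so the split between tip and other gate cells moved with depth. Median mitochondrial shares were 2.43% in tip and 2.79% in other gate cells of Drop-seq, and 3.95% and 6.25% in those of 10x. The C1 counts held 0 mitochondrial genes and give no share. Drop-seq and 10x shared 0 barcode sequences.

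The rule chose the cells on Ret, Wnt11 and the 6 gate genes, so the levels of these 8 genes are a description and carry no test. Levels are given in CPM, a gene's counts scaled to 1000000 counts of its cell set in 1 library. Ret, the receptor, stood at 92.8 CPM (exact Poisson 95% interval 78.8 to 108) in tip cells of Drop-seq, at 193 CPM (166 to 223) in those of 10x and at 232 CPM (222 to 242) in those of C1. Other gate cells had 0 Ret UMIs in Drop-seq and 10x, by the rule, and 19.2 CPM of Ret reads in C1, where counts under 20 reads per cell were allowed. Wnt11 stood at 151 CPM (133 to 170.3), 137 CPM (114 to 162) and 130.3 CPM (123 to 138) in tip cells of the 3 libraries, and at 0, 0 and 5.35 CPM in other gate cells. Endothelial cells, which should lack both genes, had 0, 0.275 and 2.90 CPM of Ret and 0, 0.550 and 5.53 CPM of Wnt11. Ret (ENSMUSG00000030110.13) lies on the minus strand of mm10 chromosome 6, at 118151745 to 118197718, and Wnt11 on the plus strand of chromosome 7, at 98835112 to 98855195. Exons of Wnt11, Gfra1, Spry1, Sox8, Hs3st3a1, Ppfibp1, Mest, Wnt7b, Tfcp2l1, Atp1b1, Krt7, Krt8, Cdkn1a, Gata3 and Cldn3 overlap another annotated gene, and the sources used here do not give whether counting used strand.

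Of the 6 gate genes, Krt23, a type I keratin, differed most between the cell sets. It stood at 138, 165 and 137 CPM in tip cells of Drop-seq, 10x and C1, against 37.4, 26.8 and 16.3 CPM in other gate cells. Calb1, which codes for the calcium-binding protein calbindin, stood at 1174, 2314 and 2487 CPM in tip cells and at 813, 1077 and 3011 CPM in other gate cells. It was the higher in tip cells of both UMI libraries and the lower in tip cells of C1. Gata3, the transcription factor that the ureteric lineage depends on, was at 289, 355 and 262 CPM in tip cells and at 296, 476 and 296 CPM in other gate cells. Epcam, a gene of epithelial adhesion, was at 1093, 875 and 463 CPM in tip cells and at 1118, 719.7 and 424 CPM in other gate cells. The ETS factor Ehf was at 143, 81.0 and 99.2 CPM in tip cells and at 176, 91.7 and 205 CPM in other gate cells. The tight junction gene Cldn3 was at 350.4, 435 and 138 CPM in tip cells and at 284, 402 and 214 CPM in other gate cells. All 6 markers of the label were present in tip cells of every library, and in endothelial cells the 4 that belong to the gate ranged from 0 to 19.1 CPM. The rule used all 6, and the endothelial cells were taken from outside the gate, so neither point is a check of the label.

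Many tip cells had only one of Ret and Wnt11. Both were detected in 50 of 107 Drop-seq tip cells (46.7%, 37.0 to 56.6%), 45 of 91 10x tip cells (49.5%, 38.8 to 60.1%) and 15 of 34 C1 tip cells (44.1%, 27.2 to 62.1%). Ret alone was detected in 26, 39 and 12 tip cells, and Wnt11 alone in 31, 7 and 7. Counts per cell were low, with a median of 2 UMIs for Ret and 2 UMIs for Wnt11 among the cells that had the gene in each UMI library. A single Ret UMI was all that 37 Drop-seq and 35 10x tip cells had of Ret, and a single Wnt11 UMI all that 30 and 14 had of Wnt11. In C1 the medians were 41 reads of Ret and 36 reads of Wnt11.

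Detection of Ret or Wnt11 went with the number of gate genes detected. Among cells with 2 gate genes, just outside the gate, 8 of 100 Drop-seq cells had Ret or Wnt11, as did 0 of 92 10x cells and 3 of 27 C1 cells. Among cells with 3 gate genes, just inside it, 10 of 40, 10 of 45 and 9 of 18 had one of them, and among cells with all 6 gate genes 32 of 39, 17 of 19 and 3 of 3. Inside the gate, Drop-seq cells with Ret or Wnt11 had median depths of 5973.5 UMIs at 3 gate genes, 7669.5 at 4, 9590.0 at 5 and 18970.5 at 6. Outside it, such Drop-seq cells with 1 and 2 gate genes, 15 and 8 in number, had medians of 15161 and 17574 UMIs, above those at 3 to 5. The other libraries differed. In C1 the medians were 123580 and 122081 reads at 1 and 2 gate genes, and 116577, 223418 and 271025 reads at 3 to 5. In 10x the median was 9681 UMIs at 1 gate gene, and 3058.5, 8690.5 and 10308 UMIs at 3 to 5. Outside the gate, Ret or Wnt11 was detected in 3.02% of Drop-seq, 2.77% of 10x and 1.79% of C1 cells.

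**Figure D1:**
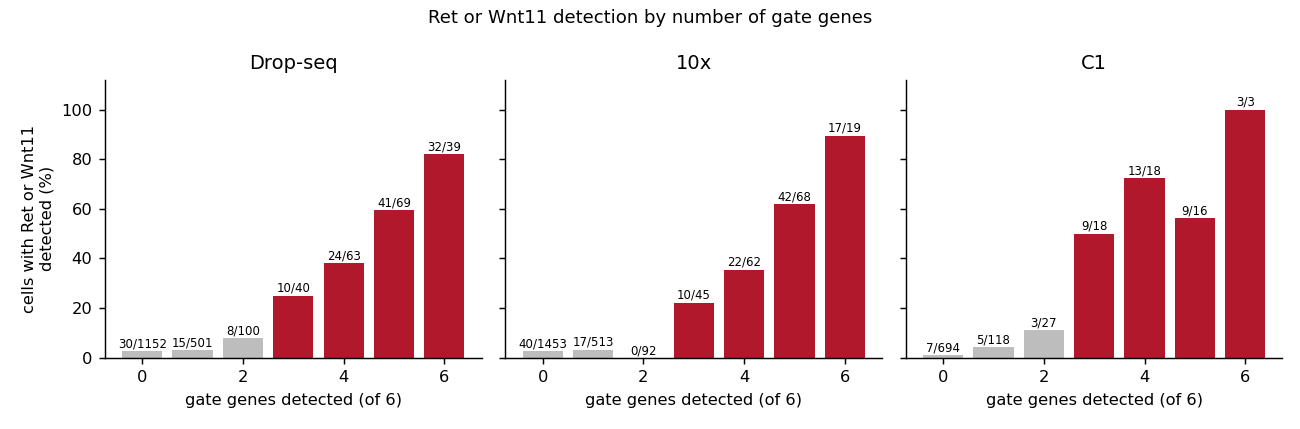
Share of cells in which Ret or Wnt11 was detected (y axis, %) by the number of the 6 gate genes detected (x axis), one panel per library; red bars are cells inside the gate, grey bars cells outside it, and the figures over the bars are cells with Ret or Wnt11 over all cells of the bar. The share reaches 82.1% in Drop-seq, 89.5% in 10x and 3 of 3 cells in C1 at 6 gate genes, and is at most 11.1% below 3.

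A pair of barcodes set tip cells of Drop-seq apart before any comparison. One tip barcode had 325686 UMIs and 12437 genes and held 19.2% of all tip counts of that library, with 1 Ret UMI and 0 Wnt11 UMIs, and it had 2 or more markers of 5 of 6 other cell classes. The second had 50664 UMIs, with 6 Ret and 30 Wnt11 UMIs, and had 2 or more markers of 0 of the 6 classes. It held 2.99% of the tip counts, and the 2 barcodes together held 22.2%. No other gate cell of either UMI library had over 50000 UMIs. Counts were summed per library and cell set, and the 6 sums were compared with edgeR's quasi-likelihood test with the library as a block, two-sided, with Benjamini-Hochberg adjustment over all genes tested and a threshold of 0.05. The fit was run with all barcodes and, as an alternative chosen after seeing the data, without these 2. For many genes below, only the fold change and p-value without the 2 barcodes are given. With all barcodes, 0 genes passed. Levels in CPM keep all barcodes unless stated.

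With all barcodes, 0 of 9017 genes passed (percent called 0%), although 707 genes (7.84%) had an unadjusted p under 0.05 and DESeq2 called 54. Without the 2 barcodes, 48 of 8559 genes passed (0.561%), of which 12 rose in tip cells (0.14%) and 36 fell (0.421%). All 12 genes that rose were higher in tip cells of each of the 3 libraries, and 24 of the 36 that fell were lower in each of them with all barcodes kept. With all barcodes, leaving out Drop-seq gave 80 calls, leaving out 10x gave 2, and leaving out C1 gave 227. The replicates of this test are the 3 platforms, with 1 library each, so its p-values measure the spread between these libraries, and the labels do not say whether they came from separate litters.

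Genes of the RET pathway stood higher in tip cells. Of 20 genes on the list of the RET axis, which does not hold Ret itself, 16 had enough counts to be tested, and 13 of these were higher in tip cells of all 3 libraries, where 17% of all genes tested were. One of the 16 was lower in all 3, where 15% of all genes were. Unadjusted p was under 0.05 for 9 of the 16, all higher, where 4.1% of all genes tested were, and the median log2 fold change was 1.15, against 0.02 over all genes. Without the 2 Drop-seq barcodes, Etv5, Sox9 and Dusp6 were among the 4 genes that rose and 0 of 16 fell, and 12 of 16 were higher at an unadjusted p under 0.05, where 6.36% of all genes were.

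Gfra1, the co-receptor that presents GDNF to RET, stood at 217 CPM (196 to 241) in tip cells of Drop-seq against 97.5 CPM (78.0 to 120.5) in other gate cells. In 10x it was at 145 CPM in tip and 48.0 CPM in other gate cells, and in C1 at 42.9 and 24.8 CPM. Tip cells were the higher in each library, and endothelial cells had 5.10, 1.38 and 2.24 CPM. The log2 fold change was 1.18 (SE 0.22, unadjusted p = 0.000516, edgeR adjusted p = 0.233), and without the 2 barcodes 1.26 (adjusted p = 0.0598). A Gfra1 UMI was found in 90.7% of tip and 38.5% of other gate cells in Drop-seq, and at 4000 UMIs per cell in 62.6% and 24.3%. The share among endothelial cells of that library was 4.35%.

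Etv4 and Etv5 are the ETS transcription factors that act downstream of RET. Etv4 stood at 147, 238 and 47.4 CPM in tip cells of Drop-seq, 10x and C1, against 46.5, 38.1 and 25.1 CPM in other gate cells. The log2 fold change was 1.70 (SE 0.32, adjusted p = 0.255), and without the 2 barcodes 1.80 (adjusted p = 0.0640). Etv5 stood at 108, 137 and 193 CPM in tip cells, against 53.3, 22.6 and 52.8 CPM in other gate cells, and its intervals did not overlap between the cell sets in any library. It was at 1.79 on the log2 scale (SE 0.29, adjusted p = 0.163) with all barcodes, and rose by 1.90 (SE 0.25, edgeR adjusted p = 0.0193) without the 2.

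The feedback inhibitors of the pathway had the same direction. Dusp6, the phosphatase that inactivates ERK, was at 147, 119 and 96.2 CPM in tip cells and at 71.5, 31.0 and 46.7 CPM in other gate cells. It rose by 1.42 on the log2 scale without the 2 barcodes (SE 0.22, edgeR adjusted p = 0.0434), but it is no gene of the tip alone, since endothelial cells had 109.7, 86.1 and 96.8 CPM. Spry1, which restrains RET signalling, was at 80.9, 173 and 126 CPM in tip cells and at 55.6, 64.9 and 51.6 CPM in other gate cells (log2 fold change 1.12, SE 0.23, adjusted p = 0.259; without the 2 barcodes 1.21, adjusted p = 0.0501). Spry4 was at 18.3, 17.9 and 15 CPM in tip cells and at 7.94, 7.06 and 2.92 CPM in other gate cells (1.70, SE 0.57, adjusted p = 0.564).

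Sox8 and Sox9, the SOX factors that act in ureteric branching, both stood higher in tip cells. Sox9 was at 288, 291 and 141 CPM in tip cells of the 3 libraries and at 161, 94.5 and 67.4 CPM in other gate cells, and rose by 1.29 on the log2 scale without the 2 barcodes (SE 0.16, edgeR adjusted p = 0.0178). Sox8 was at 21.9, 37.9 and 4.90 CPM in tip cells and at 5.67, 2.82 and 0 CPM in other gate cells, too few counts to be tested over the 3 libraries. With the UMI libraries alone its log2 fold change was 2.69 (edgeR adjusted p = 0.000148, without C1).

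Among the rest of the list, the chemokine receptor Cxcr4 was at 31.9, 17.9 and 3.3 CPM in tip cells and 14.7, 2.82 and 0.487 CPM in other gate cells (1.98, SE 0.64, adjusted p = 0.561). Grb10, an adaptor that binds receptor tyrosine kinases, was lower in tip cells of all 3 libraries, at 220, 130.4 and 451 CPM against 227, 155 and 522 CPM, a difference of -0.14 (SE 0.14, adjusted p = 0.777). Lhx1 was near 0 on this scale, with a log2 fold change of 0.04 (SE 0.25). Gdnf, the ligand, was at 2.36, 1.05 and 31.2 CPM in tip cells and at 3.40, 0 and 13.9 CPM in other gate cells, and was not tested at these counts.

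**Figure D2:**
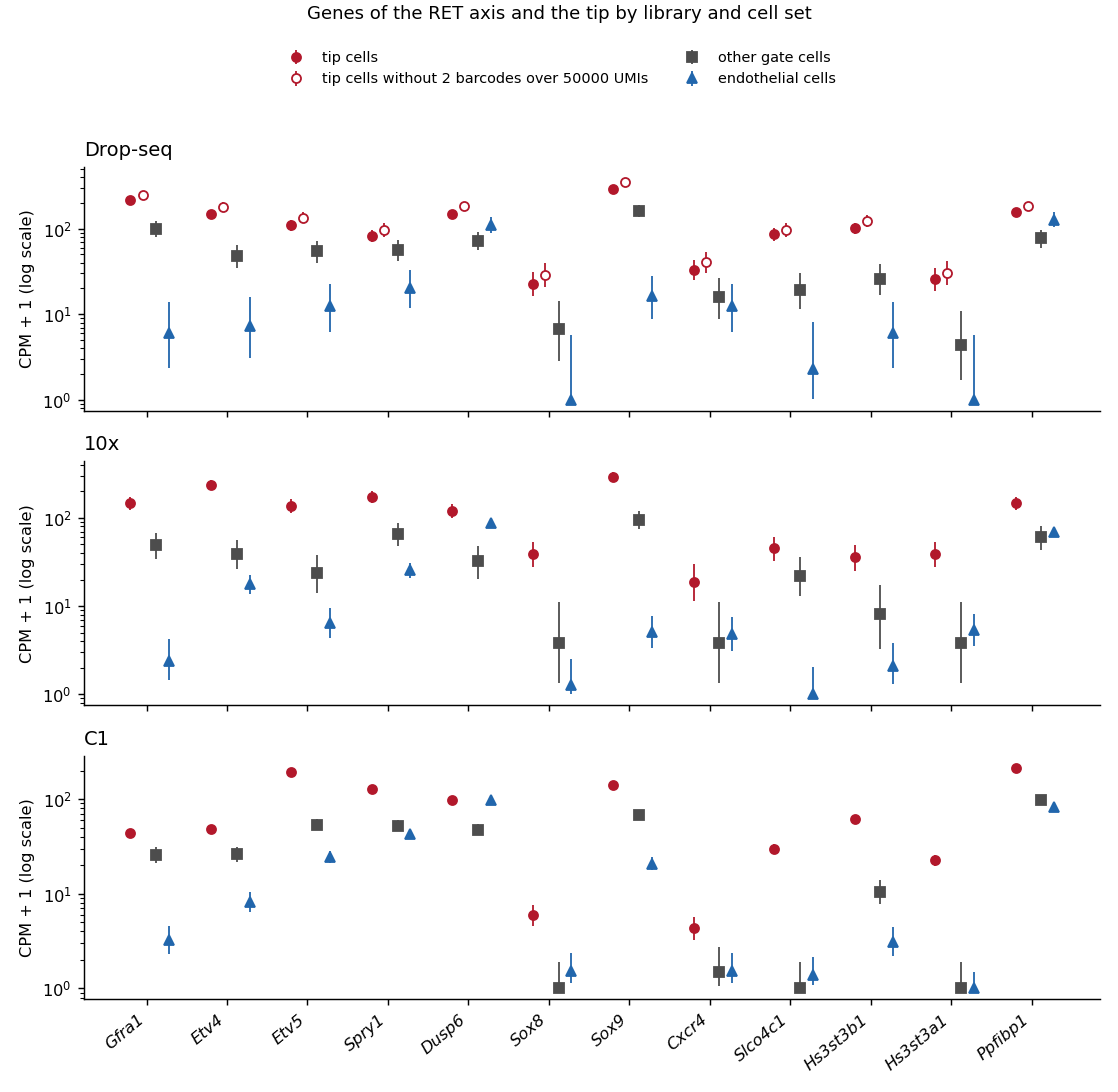
Levels of 12 genes of the RET axis and the tip in summed counts (y axis, CPM + 1 on a log scale; bars are exact Poisson 95% intervals), one panel per library; red circles are tip cells, open circles Drop-seq tip cells without the 2 barcodes of over 50000 UMIs, grey squares other gate cells and blue triangles endothelial cells. Tip cells lie above other gate cells for each of the 12 genes in every library, for example Etv5 at 108 against 53.3 CPM in Drop-seq.

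Other genes known from the tip followed in part. Of 15 genes on the tip list, which does not hold Ret or Wnt11, 14 were tested, of which 9 were higher in tip cells of all 3 libraries (17% of all genes) and 2 were lower (15%). The median log2 fold change was 1.17. Hs3st3b1, a heparan sulphate sulphotransferase, was at 99.9, 34.7 and 61.0 CPM in tip cells and at 25, 7.06 and 9.49 CPM in other gate cells, and rose by 2.49 on the log2 scale without the 2 barcodes (SE 0.28, edgeR adjusted p = 0.0116). Its paralogue Hs3st3a1 was at 24.8, 37.9 and 21.6 CPM in tip cells and at 3.40, 2.82 and 0 CPM in other gate cells (with the 2 barcodes left out, adjusted p = 0.0781). The organic anion transporter gene Slco4c1 was at 84.5, 44.2 and 28.5 CPM in tip cells and at 18.1, 21.2 and 0 CPM in other gate cells (adjusted p = 0.587). Other gate cells of C1 had 0 reads of both genes over 21 cells, and no fold is given there, since these reads are not counts of molecules.

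The list also held genes without this gap. Wnt6, a WNT ligand of the ureteric epithelium, was at 14.8, 17.9 and 0 CPM in tip cells and at 17.0, 21.2 and 12.2 CPM in other gate cells (log2 fold change -1.66, SE 1.32, adjusted p = 0.735). Emx2, a homeobox gene required in the ureteric epithelium, was at 308, 184 and 24.1 CPM in tip cells and at 396, 217 and 70.8 CPM in other gate cells (-0.69, SE 0.26, adjusted p = 0.610). Both were the lower in tip cells of all 3 libraries. Nrtn, which codes for neurturin, a relative of GDNF, was at 20.1, 69.4 and 28.4 CPM in tip cells and at 9.07, 19.8 and 18.5 CPM in other gate cells (1.16, SE 0.39, adjusted p = 0.564). Ccnd1, the cyclin of the G1 phase, had no common direction, at 631, 337 and 369 CPM in tip cells and 609, 227 and 458 CPM in other gate cells.

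Genes outside the lists that rose without the 2 barcodes were Gchfr, Ppfibp1, Sema6a, Rprm, Nfib, Kdm2b and Mest. Gchfr codes for the feedback regulator of GTP cyclohydrolase and was at 29.5, 41.0 and 83.5 CPM in tip cells, against 5.67, 2.82 and 9.49 CPM in other gate cells (3.18, SE 0.37, edgeR adjusted p = 0.0123). Endothelial cells had far more Gchfr, at 365, 458 and 663 CPM. Ppfibp1, which codes for a liprin of the beta type, was at 154, 145 and 209.6 CPM in tip cells and at 76.0, 59.3 and 97.6 CPM in other gate cells (1.24, SE 0.16, edgeR adjusted p = 0.0193). Mest, an imprinted gene of growing embryonic tissue, was at 531, 690.2 and 953 CPM in tip cells and at 335, 219 and 572 CPM in other gate cells (1.12, SE 0.18, edgeR adjusted p = 0.0434). The endothelial levels of Mest were 2027, 2406 and 1637 CPM. Summed endothelial markers were at 36.0, 89.4 and 246 CPM in tip cells and at 43.1, 55.0 and 132 CPM in other gate cells, against 2197, 2528 and 2039 CPM in endothelial cells, and their part in these genes was not tested.

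Genes of the trunk, the collecting duct and the urothelium stood lower in tip cells. Of 29 genes on that list, 20 were tested, of which 10 were lower in tip cells of all 3 libraries (15% of all genes) and 1 was higher (17%). Unadjusted p was under 0.05 for 9 lower genes (3.74% of all genes) and 1 higher gene, S100a6, and the median log2 fold change was -1.53. Without the 2 barcodes, 11 of 16 tested genes were lower at an unadjusted p under 0.05, where 5.78% of all genes were, and 9 fell at the adjusted threshold, among them Krt19, Krt7, Upk3a, Scnn1b, Tfcp2l1, Fxyd4, Wnt7b and Cdh16. Drop-seq tip cells had 173 CPM of Krt7 with the 2 barcodes and 30.4 CPM without them.

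Wnt7b, the ligand of the ureteric trunk, was at 20.1 CPM (13.9 to 28.1) in tip cells of Drop-seq and at 5.32 CPM (2.14 to 11) without the 2 barcodes, against 34.0 CPM (23.0 to 48.6) in other gate cells. In 10x it was at 16.8 CPM in tip and 66.3 CPM in other gate cells, and in C1 at 6.83 and 59.6 CPM. It fell by 2.60 on the log2 scale without the 2 barcodes (SE 0.38, edgeR adjusted p = 0.0297), and with all barcodes the difference was -2.0 (adjusted p = 0.371). Wnt9b, the other trunk ligand, did not go with Wnt7b: it was at 39.6, 11.6 and 32.1 CPM in tip cells and at 28.4, 32.5 and 10.5 CPM in other gate cells. It was the higher in tip cells of Drop-seq and C1 and the lower in those of 10x (log2 fold change 0.39, SE 0.56, adjusted p = 0.853; -0.23 without C1).

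Tfcp2l1, a transcription factor of collecting duct maturation, was at 82.1, 80.0 and 133 CPM in tip cells and at 153, 274 and 295 CPM in other gate cells, and fell by 1.45 on the log2 scale without the 2 barcodes (SE 0.17, edgeR adjusted p = 0.0128). Scnn1b, a subunit of the epithelial sodium channel, was at 57.9, 17.9 and 12.5 CPM in tip cells (13.7 CPM in Drop-seq without the 2 barcodes) and at 61.3, 109 and 93.2 CPM in other gate cells. It fell by 2.56 on the log2 scale without the 2 barcodes (SE 0.28, edgeR adjusted p = 0.00997). Krt19 was at 106, 17.9 and 8.77 CPM in tip cells (12.2 CPM in Drop-seq without the 2 barcodes) and at 110.0, 346 and 94.7 CPM in other gate cells, and fell by 3.58 (SE 0.25, edgeR adjusted p = 0.00188). Krt19, Krt7, Krt8 and Krt18 code for keratins of simple epithelia, and all 4 fell without the 2 barcodes.

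Upk3a codes for a uroplakin, a plaque protein of the urothelial surface. It was at 0.591, 0 and 0.455 CPM in tip cells and at 23.8, 77.6 and 29.7 CPM in other gate cells. Tip cells of 10x had an Upk3a UMI in 0 of 91 cells (exact 95% upper bound 3.97%) and were at least 24.6-fold lower than other gate cells, by the floor of 3 counts. In the fit the difference was -6.15 (SE 0.66, edgeR adjusted p = 0.0596) with all barcodes and -6.55 (adjusted p = 0.00959) without the 2, values that depend on the prior count where a cell set is at 0. Upk3a was found in few other gate cells, at 4.81% of Drop-seq, 11.7% of 10x and 9.52% of C1 cells. When gate cells with Upk3a, Upk1b or Upk2 were left out, also chosen after seeing the data, 20 genes were called. This left out 1 Drop-seq tip cell too, the barcode of 325686 UMIs, which held the only Upk3a UMI of the Drop-seq tip cells, so the 20 calls cannot be put down to the uroplakin cells alone. Aqp2, the water channel of mature collecting duct, was at 8.86, 0 and 0 CPM in tip cells and at 1.13, 5.64 and 0 CPM in other gate cells, and all of the Drop-seq tip counts came from the 2 barcodes.

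Genes outside the lists also fell without the 2 barcodes, 19 in all, and S100g, Atp1b1, Mal and Lgals3 are those that the rule for named genes gave. S100g, the calbindin of the small EF-hand type, was at 1.18, 3.16 and 5.92 CPM in tip cells and at 174, 195 and 68.6 CPM in other gate cells (-4.63 without the 2 barcodes, SE 0.50, edgeR adjusted p = 0.00997). Atp1b1, a subunit of the sodium pump, was at 175, 80.0 and 18.3 CPM in tip cells and at 614, 553 and 45.3 CPM in other gate cells (-2.35, SE 0.31, edgeR adjusted p = 0.0193). Mal, a proteolipid of apical transport, was at 92.8, 39.98 and 29.7 CPM in tip cells and at 217, 220.1 and 242 CPM in other gate cells (-2.55, SE 0.22, edgeR adjusted p = 0.00417). Lgals3, a galectin of ureteric and collecting duct epithelium, was at 15.4, 9.47 and 5.58 CPM in tip cells and at 49.9, 73.4 and 60.8 CPM in other gate cells (-3.39, SE 0.36, edgeR adjusted p = 0.00959). For each of these 4 genes tip cells were the lower in every library.

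**Figure D3:**
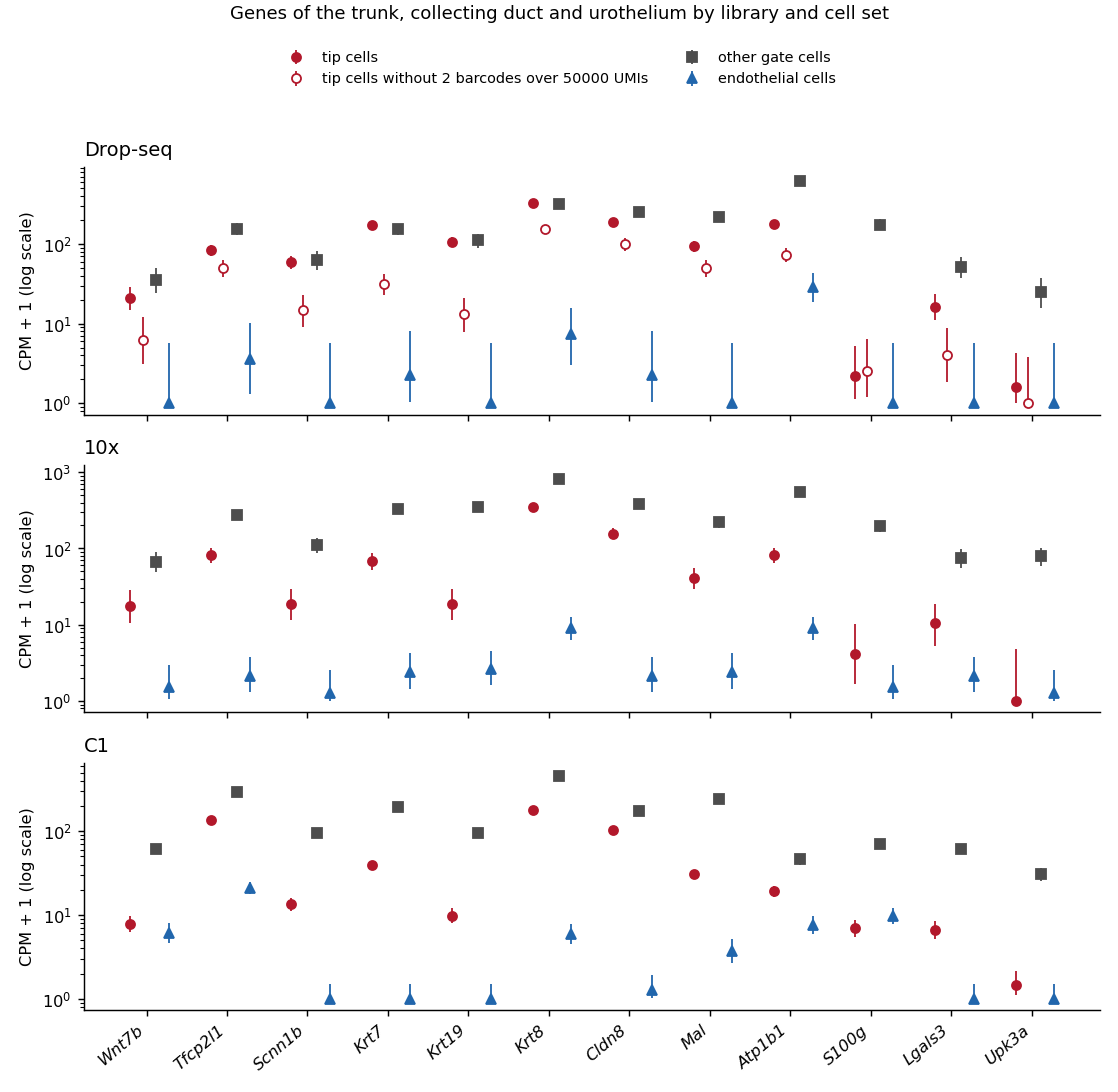
Levels of 12 genes of the trunk, collecting duct and urothelium (y axis, CPM + 1 on a log scale; bars are exact Poisson 95% intervals), one panel per library, with symbols as in the plot of RET axis and tip genes. In 10x and C1 tip cells lie below other gate cells for each of the 12 genes. With all barcodes, Krt7 and Krt8 had no common direction over the 3 libraries. In Drop-seq, tip cells lie below for Krt7 once the 2 barcodes are left out (30.4 against 152 CPM).

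The stretch before the start site is shown for 4 genes that mark the contrast: Wnt11, which the rule used, Dusp6, which rose, and Upk3a and Tfcp2l1, which fell. The sequences are the 250 bases before the start, from RefSeq, build GRCm38.p6. They were searched on both strands for CCGGAA (a motif of ETS factors such as ETV4 and ETV5), AGATAA (bound by GATA factors) and TATAAA (the TATA box). Of 32851 promoter windows of this length, 12%, 9.99% and 12.4% hold them, and capitals mark a match. The shorter ETS core GGAA was not searched for.
Wnt11 (chr7:98834862-98835111, plus strand): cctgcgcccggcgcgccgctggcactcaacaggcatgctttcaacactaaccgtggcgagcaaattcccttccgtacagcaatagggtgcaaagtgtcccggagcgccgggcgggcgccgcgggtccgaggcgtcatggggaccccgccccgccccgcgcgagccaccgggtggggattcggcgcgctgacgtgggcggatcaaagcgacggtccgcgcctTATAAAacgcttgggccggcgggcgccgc
Dusp6 (chr10:99262981-99263230, plus strand): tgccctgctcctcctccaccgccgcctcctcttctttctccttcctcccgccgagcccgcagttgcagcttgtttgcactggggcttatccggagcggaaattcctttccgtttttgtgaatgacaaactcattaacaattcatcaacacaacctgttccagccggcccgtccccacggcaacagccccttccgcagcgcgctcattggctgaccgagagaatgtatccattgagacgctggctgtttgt
Upk3a (chr15:85016891-85017140, plus strand): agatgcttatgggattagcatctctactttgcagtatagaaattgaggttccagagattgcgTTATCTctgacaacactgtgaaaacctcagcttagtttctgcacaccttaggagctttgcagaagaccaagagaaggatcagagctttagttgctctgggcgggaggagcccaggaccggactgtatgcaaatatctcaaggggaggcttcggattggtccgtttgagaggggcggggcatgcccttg
Tfcp2l1 (chr1:118627695-118627944, plus strand): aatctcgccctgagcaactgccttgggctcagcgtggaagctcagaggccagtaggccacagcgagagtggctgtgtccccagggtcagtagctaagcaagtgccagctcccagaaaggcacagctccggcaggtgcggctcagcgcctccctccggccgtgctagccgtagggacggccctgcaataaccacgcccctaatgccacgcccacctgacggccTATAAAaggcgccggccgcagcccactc

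The Wnt11 window, which belongs to the first of its annotated starts, holds TATAAA with its first base 29 bases before the start, and 37 CpG dinucleotides, against a median of 6 over all windows (interquartile range 2 to 16). A second annotated Wnt11 start has a window, chr7:98838595-98838844, that holds the ETS motif CCGGAA from 203 bases before that start. The Tfcp2l1 window holds TATAAA 28 bases before the start and 16 CpG dinucleotides. The Upk3a window holds 6 CpG dinucleotides and a match to AGATAA on the opposite strand from 188 bases before the start. The Dusp6 window holds 16 CpG dinucleotides and none of the 3 motifs searched for, though the shorter GGAA occurs in it. Of the 12 genes that rose, 8 had a promoter entry, of which 1 held the ETS motif CCGGAA and 0 the GATA motif. Of the 36 that fell, 25 had an entry, of which 2 held the ETS motif and 2 the GATA motif. Over all windows, 12% and 9.99% hold them. A match is a run of letters and not a shown site of binding.

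Among transcription factors of the ureteric lineage, more were lower than higher in tip cells. Of 32 listed, 24 were tested, with 4 higher (17% of all genes) and 10 lower (15% of all genes) in tip cells of all 3 libraries. Unadjusted p was under 0.05 for 3 higher and 8 lower genes, and the median log2 fold change was -0.32. Id2 and Id3, inhibitors of helix-loop-helix factors that respond to BMP signals, fell without the 2 barcodes. Id3 was at 898, 719.6 and 929 CPM in tip cells and at 1013, 1288 and 1539 CPM in other gate cells, a difference of -0.72 without the 2 barcodes (SE 0.08, edgeR adjusted p = 0.0128). Hoxb7, the homeobox gene whose promoter drives the common ureteric bud transgenes, was at 394, 385 and 186 CPM in tip cells and at 222, 230.0 and 135 CPM in other gate cells (0.70, SE 0.15, adjusted p = 0.263). Hoxa9 was at 18.3, 1.05 and 1.82 CPM in tip cells and at 130.4, 72.0 and 8.76 CPM in other gate cells (-3.09, SE 0.51, adjusted p = 0.169). Pax2, which the ureteric bud requires, was at 255, 186 and 8.54 CPM in tip cells and at 174, 161 and 4.38 CPM in other gate cells (0.55, SE 0.20, adjusted p = 0.587).

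All 24 junction and keratin genes on the list were tested, and 2 were higher and 4 lower in tip cells of all 3 libraries. The share lower is near the 15% of all genes, and 17% of all genes were higher. Of the 24, Krt8, Krt18, Cldn8 and Cldn4 fell without the 2 barcodes. Cldn8, a claudin of the distal tubule and collecting duct, was at 190.3, 155 and 102 CPM in tip cells and at 251, 387 and 172 CPM in other gate cells (-1.08, SE 0.16, edgeR adjusted p = 0.0345). Cdh1, which codes for E-cadherin, was at 118, 49.4 and 76.7 CPM in tip cells and at 143, 199 and 133 CPM in other gate cells (-0.95, SE 0.29, adjusted p = 0.544).

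Counts of shared direction in the other signalling lists are set against 17% of all genes higher and 15% lower in all 3 libraries. Of 19 WNT genes tested, 2 were higher and 3 lower in all 3 libraries, and 0 had an unadjusted p under 0.05, where 7.84% of all genes did. Of 7 FGF and ERK genes tested, 3 were higher and 1 lower. Fgf9, an FGF ligand that nephron progenitors respond to, was at 30.7, 27.4 and 28.2 CPM in tip cells and at 19.3, 12.7 and 1.22 CPM in other gate cells (2.0, SE 0.75, adjusted p = 0.610). Spred1, an inhibitor of the RAS and ERK cascade, was at 45.5, 46.3 and 12.5 CPM in tip cells and at 27.2, 19.8 and 2.68 CPM in other gate cells (1.39, SE 0.42, adjusted p = 0.536). Of 11 BMP and TGF-beta genes, 4 were higher and 3 lower, and Bmp7 was at 85.7, 117 and 26 CPM in tip cells and 69.2, 53.6 and 9.73 CPM in other gate cells (0.96, SE 0.28, adjusted p = 0.530). Of 15 retinoid and Hedgehog genes, 4 were higher and 2 lower in tip cells of all 3 libraries, and the share lower is near that of all genes.

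Among 28 genes of basement membrane, integrins and guidance, 5 were higher and 5 lower in all 3 libraries, near the 17% and 15% of all genes. Frem2, a matrix gene of the Fraser complex, which the outgrowing ureteric bud needs, was at 103, 106 and 135 CPM in tip cells and at 57.8, 66.3 and 88.8 CPM in other gate cells (0.72, SE 0.19, adjusted p = 0.460). Col18a1, a basement membrane collagen, was at 178, 83.1 and 95.0 CPM in tip cells and at 233, 341 and 166 CPM in other gate cells (-1.01, SE 0.28, adjusted p = 0.528).

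Cell cycle genes leaned higher in tip cells. All 30 were tested, 14 were higher in tip cells of all 3 libraries and 0 were lower, where 17% and 15% of all genes were, and the median log2 fold change was 0.40. Mcm7, a subunit of the replicative helicase, was at 171, 126 and 286 CPM in tip cells and at 118, 62.1 and 202 CPM in other gate cells (0.68, SE 0.18, adjusted p = 0.457). Cdkn1a codes for the cell cycle inhibitor p21. It was at 125, 29.5 and 8.54 CPM in tip cells and at 125, 114 and 24.3 CPM in other gate cells. Without the 2 barcodes Cdkn1a fell (-1.51, SE 0.24, edgeR adjusted p = 0.0472). With all barcodes the difference was -1.07 (edgeR adjusted p = 0.564). Of 14 immediate early and heat shock genes that respond to tissue dissociation, 1 was higher and 4 were lower in all 3 libraries. Hspb1, a small heat shock gene, fell without the 2 barcodes (-2.51, SE 0.35, edgeR adjusted p = 0.0231). With all barcodes the Hspb1 difference was -1.51 (edgeR adjusted p = 0.650). Jun was at 115, 69.4 and 20.2 CPM in tip cells and at 119, 196 and 109 CPM in other gate cells. Depth, mitochondrial share and these stress genes moved together with the tip label, and their part in the gene differences was not tested.

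**Figure D4:**
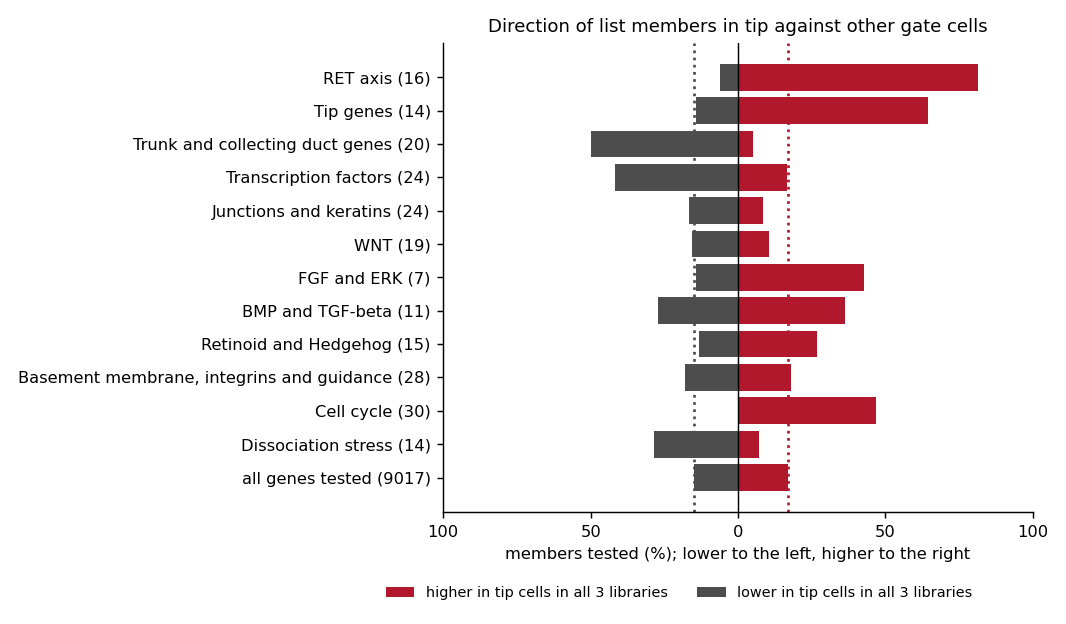
Share of tested members of each of 12 gene lists that were higher (red, to the right) or lower (grey, to the left) in tip cells than in other gate cells in all 3 libraries (x axis, %; number tested in brackets); dotted lines mark the 17% and 15% of all 9017 genes tested. The RET axis (13 of 16 higher) and the trunk list (10 of 20 lower) lie farthest out on their sides.

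Markers of other cell classes were compared between the cell sets. Summed markers of cap mesenchyme were at 59.1, 37.9 and 424 CPM in tip cells and at 55.6, 57.9 and 516 CPM in other gate cells. The 8 stromal markers were at 76.2, 122 and 1205 CPM in tip cells and at 274, 286 and 418 CPM in other gate cells, with 0 of the 8 at 0. In C1, 11 of 34 tip cells and 5 of 21 other gate cells had 2 or more of them. Early nephron epithelium markers were at 909, 452 and 490 CPM in tip cells and at 837, 491 and 702 CPM in other gate cells. In tip cells 0 of the 8 were at 0. Of tip cells, 81 of 107, 55 of 91 and 13 of 34 had 2 or more, as did 60 of 104, 41 of 103 and 4 of 21 other gate cells. These markers include Ccnd1, which is also on the tip list and made up most of the sum in tip cells. They also include Lhx1, which is on the RET axis list, so the counts do not mark nephron cells alone. Podocyte markers were at 7.09, 6.31 and 7.17 CPM in tip cells and at 19.3, 12.7 and 25.3 CPM in other gate cells. The proximal tubule markers were at 19.5, 27.4 and 20.7 CPM in tip cells and at 85.1, 257 and 41.9 CPM in other gate cells, and Cubn was at 0 in 10x and C1 tip cells. Distal nephron markers were at 327, 302 and 178 CPM in tip cells and at 487, 456 and 150 CPM in other gate cells, and Umod was at 0 in tip cells of all 3 libraries. Tfap2b and Mecom are among these markers and also on the list of ureteric transcription factors. Erythroid markers were at 4663, 68.4 and 0.114 CPM in tip cells and at 2477, 67.7 and 0 CPM in other gate cells. In Drop-seq, 96 of 107 tip cells and 93 of 104 other gate cells had 2 or more, and stromal cells were at 14929 CPM. Immune markers were at 18.9, 19.99 and 22 CPM in tip cells and at 23.8, 31.0 and 35.3 CPM in other gate cells. Their part in the differences was not tested gene by gene; with gate cells that had 2 or more markers of cap mesenchyme, stroma, endothelium, immune or erythroid cells left out, 60 genes were called, on only 10 tip and 9 other gate cells of Drop-seq, and the barcode of 325686 UMIs was among those left out.

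Tip cells were also compared among themselves, by whether Wnt11 was detected. This comparison was added after seeing the data and left out the 2 barcodes: 80, 52 and 22 tip cells with Wnt11 were set against 25, 39 and 12 with Ret alone. With edgeR, 0 of 7585 genes passed the adjusted threshold (0%), 214 were higher (2.82%) and 179 lower (2.36%) at an unadjusted p under 0.05, and DESeq2 called 2. Without C1 72 genes passed, without 10x 7, and without Drop-seq 0.

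Within the tip, RET axis genes had higher fitted levels where Wnt11 was detected. Of 17 RET axis genes tested, 15 had a log2 fold change above 0 and 2 below, against 3890 above and 3695 below over all genes, with a median of 0.75 against 0.01. Dusp6 was at 202, 144 and 127 CPM in Wnt11-detected tip cells and at 83.7, 77.8 and 50.5 CPM in those with Ret alone (1.18, SE 0.22, adjusted p = 0.678). Etv5 was at 142, 173 and 248 CPM with Wnt11 and at 92.1, 77.8 and 111 CPM with Ret alone (1.01, SE 0.20, adjusted p = 0.678). Sox9 was at 379.7, 319.97 and 196 CPM with Wnt11 and at 234, 245 and 60.1 CPM with Ret alone (0.98, SE 0.25, adjusted p = 0.811). Gfra1 and Spry1 had smaller differences, 0.36 (SE 0.21) and 0.10 (SE 0.21). The Wnt11-detected cells pool those with and without Ret. In Drop-seq, cells with both genes were at 439 CPM of Sox9, and cells with Wnt11 but no Ret at 229 CPM, near the Ret-alone level. Gfra1 and Spry1 were at 219 and 72.0 CPM with Wnt11 but no Ret, and at 230 and 117 CPM with Ret alone. Dusp6 and Etv5, at 183 and 131 CPM with Wnt11 but no Ret, were above their Ret-alone levels.

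Trunk genes had the opposite lean within the tip. Of 12 trunk and collecting duct genes tested, 9 had a log2 fold change below 0 and 3 above. Over all genes, 3695 were below and 3890 above. The median was -0.91, against 0.01 over all genes. At an unadjusted edgeR p under 0.05, 6 of the 12 were lower and 2 higher, where 2.36% and 2.82% of all genes were. The 2 higher genes were S100a6 (0.69, SE 0.16) and Wfdc2 (0.35, SE 0.14). Tfcp2l1 was at 41.8, 50.8 and 72.2 CPM in Wnt11-detected tip cells and at 79.5, 128 and 223 CPM in those with Ret alone (-1.35, SE 0.25, adjusted p = 0.678). Wnt9b was at 22.3, 6.77 and 28.6 CPM with Wnt11 and at 83.7, 19.5 and 37.2 CPM with Ret alone (-1.15, SE 0.48, adjusted p = 0.811). Median depth was 10414 UMIs, 10867 UMIs and 200975 reads in Wnt11-detected cells and 6746 UMIs, 8868 UMIs and 244040.5 reads in Ret-alone cells, and its part in these values was not tested.

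**Figure D5:**
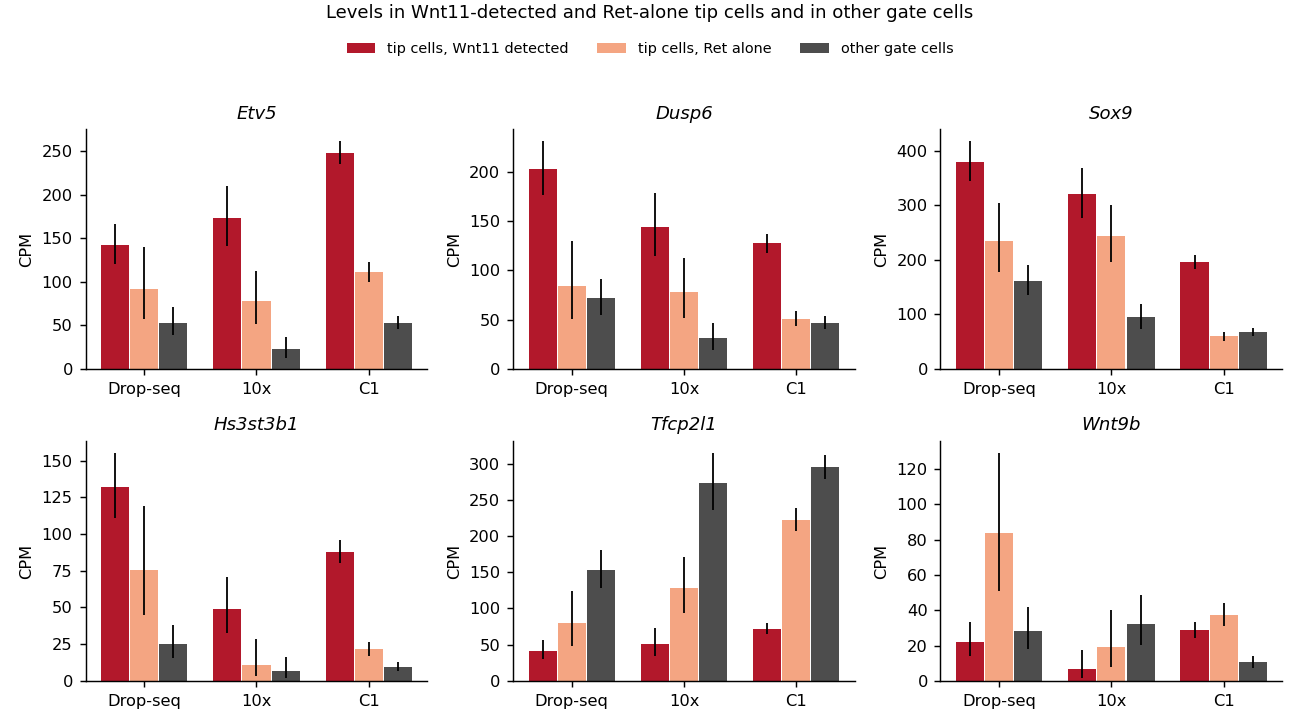
Levels of 6 genes (y axes, CPM; bars are summed counts and whiskers exact Poisson 95% intervals) by library in tip cells with Wnt11 detected (red), tip cells with Ret alone (pale) and other gate cells (grey); Drop-seq bars leave out the 2 barcodes of over 50000 UMIs. Etv5, for example, stood at 248, 111 and 52.8 CPM in C1.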

How the data were processed

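The deposited tables hold raw counts per gene and cell: UMI counts for Drop-seq and 10x, and read counts without molecular identifiers for C1. Reads were aligned to mm10 with Bowtie2 2.2.7 (Drop-seq, C1) or processed with Cell Ranger 1.3.0 (10x), per the submitters' processing notes. Library totals were 17751487 UMIs, 17952211 UMIs and 173799153 reads. Cells with 500 or more genes were kept, counts were summed per library and cell set over 17864 shared symbols, and edgeR 4.0.16 (R 4.3.3; TMM scaling, robust quasi-likelihood fit, library as block) was run on all genes that passed filterByExpr. Ret, Wnt11 and the 6 gate genes were not tested. Scrublet called 5 Drop-seq, 6 10x and 11 C1 cells as doublets, and the main fit left all of them in. Among gate cells, 3 Drop-seq tip cells and 1 other gate cell of 10x were called. An alternative that left out doublets used the C1 calls alone, since under 0.5% of Drop-seq and 10x cells were called. On simulated counts for 8655 genes, 84 of 98 genes changed by 2 on the log2 scale were called, and 10 of 97 changed by 1. In the same simulation, 5 unchanged genes were called. Every simulated gene had the same dispersion, unlike the real counts, so these shares need not hold for the real fit. Named genes were a set list plus the 10 smallest p-values, 27 in all; some are not reported here, and other genes named were chosen after their values were seen. The members and lists were chosen with earlier results of these data known. Gene positions are from GENCODE, and promoters from RefSeq.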

Additional observations from a re-analysis of the deposited data

How the results depend on the processing

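With all barcodes and 3 libraries, 0 genes were called, and 14 of 19 alternatives called 1 or more. Leaving out 1 library gave 2 to 227 calls (80 without Drop-seq, 2 without 10x, 227 without C1). DESeq2 called 54 genes, limma on log2 of the mean CPM per cell 130, a fit with 3 other cell classes 20 and a test without a filter on low counts 20. Among cell filters, leaving out cells with markers of other classes gave 60, thinning 3, a gate of 4 genes 1, a stricter rule of 2 UMIs or 100 reads 8, and 1 read as detection in C1 10. Added after seeing the data, leaving out barcodes over 50000 UMIs gave 48 and leaving out uroplakin-positive cells, which takes out the 325686-UMI barcode as well, 20. The cause was not tested. The tip share of gate cells was 37.2%, 38.6% and 21.4% in Drop-seq, 10x and C1 after thinning and 32.2%, 30.4% and 10.9% under the stricter rule, and 54.4% in 10x with 4 gate genes. Within the tip, leaving out 1 library gave 0 to 72 calls (7 without 10x), and DESeq2 gave 2. Of 18 named genes tested, 17 kept their sign in every alternative that gave them a value (17 to 19 of 19), and Wnt9b (0.39) ranged from -0.23 without C1 to 1.09 without 10x. Tip and other gate sums are paired by library through the block in the fit, and 0 genes were called with no library block. Cell names of C1 fall into 2 groups that the labels do not explain. They hold 562 cells (25 tip, 13 other gate) and 332 cells (9 tip, 8 other gate). The main fit took C1 as 1 library, and 0 genes were called with the groups apart. Depth limits Ret and Wnt11, which many cells hold as 1 UMI, so a tip cell can fall among the other gate cells, and with 1 library per platform, platform and animal cannot be told apart.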
